A study of Mus musculus with 14 samples.

Results

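Long noncoding transcripts were followed through the differentiation of C2C12, a line of mouse myoblasts that form myotubes in culture, with and without knockdown of the transcription factor Klf5. They were selected on their annotation and their level: a transcript was kept where the deposited table calls it ncRNA, its exon length is at least 200 bases and its mean FPKM over the 8 RNA libraries is at least 20. H19, Meg3, Rian and Mirg were left out by name, and of these H19 alone passed the level, with a mean of 4923. This left 208 transcripts of 24016 in the table, out of 1862 noncoding ones of at least 200 bases. A further 448 of those had a mean of at least 1 and under 20. Because the mean level chose the transcripts, levels are given below as a description and were not tested. No contrast between days or between siRNAs was itself used in the choice. The mean takes in days 1 to 3, however, so a transcript near 0 on day 0 could pass on its later levels. 2310043L19Rik did so, with 0 in both day 0 libraries and a mean of 25.2. The split between rises and falls is therefore not independent of the choice, and the size of this effect was not tested.

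All 8 libraries came from C2C12 cells of 1 line transfected with an siRNA. One course received control siRNA (siCtrl) and the other Klf5 siRNA (siKlf5), and poly(A) RNA was taken on days 0, 1, 2 and 3 in differentiation medium, with 1 library per siRNA and day. No condition was therefore replicated. For the day, the pair of siRNA courses stood in for replicates, and for the siRNA, the 4 days did, so the p-values set each effect against how far libraries departed from additive day and siRNA effects, a spread that may be technical. Reads on transcripts ranged from 7850497 (siCtrl, day 1) to 20301506 (siCtrl, day 2). Klf5 itself had an FPKM of 224, 381, 614 and 933 on days 0 to 3 in siCtrl cells and of 35.1, 159.6, 192 and 211 in siKlf5 cells, below the control library on each day (adjusted p = 0.0244, limma). Of 9 muscle markers, 6 were called higher on day 3 and none lower (limma, Benjamini-Hochberg adjusted p under 0.05). The summed FPKM of 3 endothelial markers was 0 to 1.04 over the libraries and that of 3 adipocyte markers 0 to 3.81, with Plin1 at 0 throughout. The 3 blood markers summed to 3.17 to 25.1, mostly Cd68, and the 2 keratinocyte markers to 5.2 to 29.6. The 3 neural markers summed to 274 to 704, nearly all of it Tubb3, with Snap25 at 0. In bulk RNA, fewer cells of a type and less RNA per cell cannot be told apart.

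A long noncoding transcript is defined by its length and by the lack of a known protein, and the class holds RNAs with little else in common. Some act in the nucleus, such as Neat1, the scaffold of paraspeckles, and Xist, which coats the inactive X chromosome. Others are processed: the introns of the snoRNA host genes are cut into small nucleolar RNAs, which guide the modification of ribosomal RNA, and a few hosts release microRNAs. Many run antisense to a protein-coding gene or start beside one, and some have since been found to encode small proteins.

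The names show this mix. RefSeq held an entry for 205 of the 208 transcripts, and for 33 it gave another symbol than the table. Of the 205, RefSeq now lists 187 as long noncoding or antisense RNA, 3 as RNase P or RNase MRP RNA and 15 as protein coding. A clone name or a numbered name was carried by 148 of the transcripts, and 18 had an antisense or opposite strand name. Against the mm9 gene models of GENCODE, 34 started within 1000 bases of the start of a coding gene on the other strand. Exon lengths ranged from 236 to 17911 bases with a median of 1372.

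Levels spanned a wide range. The mean FPKM of the 208 transcripts ran from 20.5 to 1198 with a median of 45.1, and 54 transcripts reached a mean of 100 and 5 reached 500. Neat1 was the highest, with 1163, 836, 718 and 1577 in siCtrl cells and 1162, 1646, 1029.9 and 1451 in siKlf5 cells on days 0, 1, 2 and 3. Malat1, its neighbour on chromosome 19 and a resident of nuclear speckles, had 697, 1044, 786 and 862 in siCtrl cells and 816, 1273, 719 and 1102 in siKlf5 cells. Rmrp, the RNA of RNase MRP, followed with a mean of 756. The ranges of Neat1 and Malat1 over the 8 libraries overlapped. At the lower end, the means of 2010204K13Rik (20.5), Zeb2os (20.9) and Gm10638 (21.1) lay just inside the limit, and those of 4933433G19Rik (19.9), 4932416H05Rik (19.5) and 4930577N17Rik (19.2) just outside it. Only 1 transcript, 2310043L19Rik, was at 0 in any library, and 57 had fewer than 30 reads in at least 1 library.

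**Figure D1:**
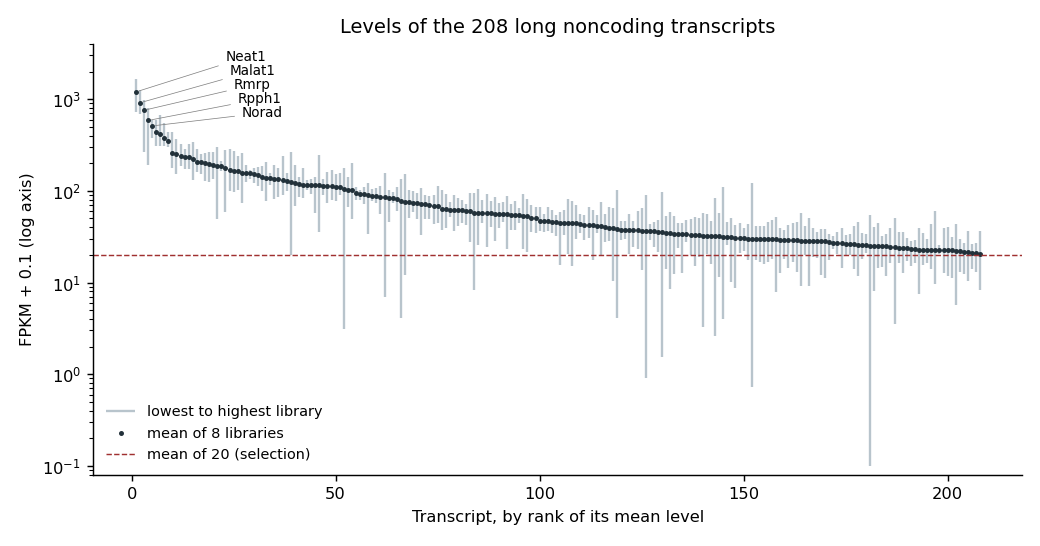
Each of the 208 transcripts is placed by the rank of its mean level (horizontal axis), with the mean FPKM of the 8 libraries as a point and the lowest to highest library as a bar on a log axis (FPKM + 0.1). The dashed line is the mean of 20 used in the choice. Neat1 stands highest with a mean of 1198, and 1 transcript reaches down to 0 in its lowest library.

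Differentiation was examined first, by comparing day 3 with day 0 over both courses. Of the 208 transcripts, 38 rose, 20 fell and 150 were not called (limma on log2(FPKM + 0.1) with siRNA and day as terms, Benjamini-Hochberg adjusted p under 0.05 over 14312 transcripts). Over all transcripts tested, 12.8% were called higher and 17.6% lower, and the noncoding transcripts stood at 18.3% and 9.62%. Among all 10537 transcripts with a mean of at least 20, the shares were 14.4% and 22.8%. The median log2 difference was -0.01 for the 208, -0.09 for all tested and -0.13 for all with a mean of at least 20. Of the 38 that rose, 31 did so by at least 2-fold and 10 by at least 4-fold in the fit, whereas 8 of the 20 that fell did so by at least 2-fold and 1 by at least 4-fold. In each of these 58 the pair of day 3 values did not overlap the pair of day 0 values. The call rests on the same values, so this adds no support to it, and no share over all tested transcripts is given. Of the 38, 20 came from the 104 transcripts with the lower mean levels, and of the 20, 18 came from the 104 with the higher ones.

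The split between rises and falls depended on the scaling of the libraries. With upper-quartile scaling 40 rose and 13 fell, and with median-ratio scaling 40 rose and 12 fell, so that the share of calls that were rises went from 65.5% to 75.5% and 76.9%. The median of all tested transcripts moved from -0.09 to 0.01 with either. The number of calls also rested on single libraries. Without a library of day 0 or day 3, between 15 and 19 transcripts were called higher and between 5 and 7 lower; without a library of day 2 the counts were 25 and 11. Without the siCtrl library of day 1 they were 35 and 25, and without the siKlf5 library of day 1 they were 35 and 24. All 58 kept their direction in each of these 8 fits, and 16 of them kept their call in all 8.

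**Figure D2:**
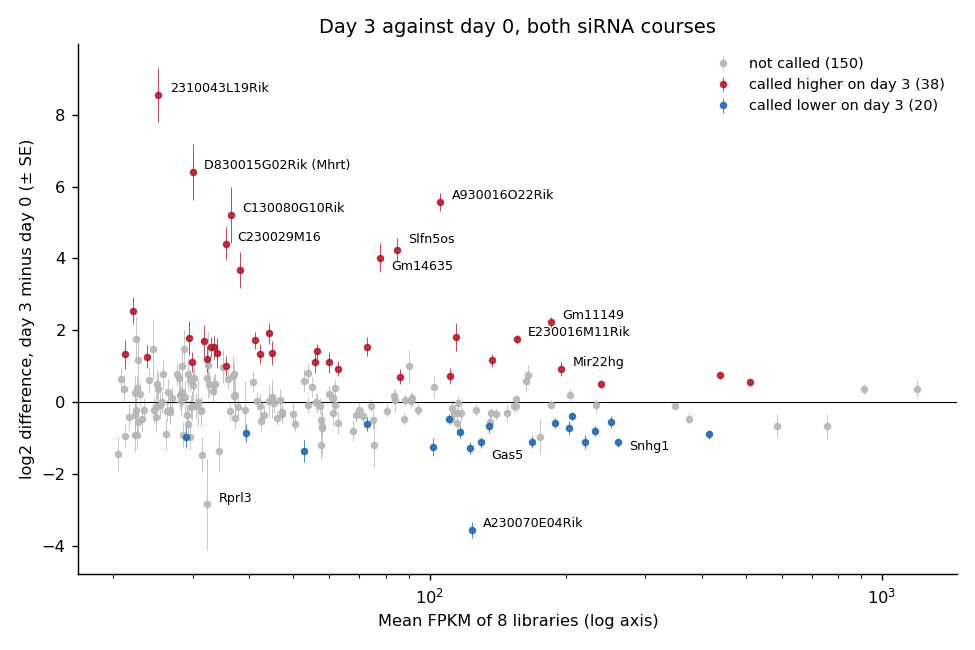
The fitted log2 difference of day 3 minus day 0 (vertical axis, with its standard error as a bar) is plotted against the mean FPKM of the 8 libraries (log axis) for each of the 208 transcripts. The 38 called higher (red) reach up to 8.54, a value set by the pseudocount since 2310043L19Rik had no reads on day 0 (at least 19.5-fold in siCtrl and 13.3-fold in siKlf5 cells), and lie mostly at low to middle levels, while the 20 called lower (blue) lie between -3.55 and -0.38.

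The 8 largest increases belonged to transcripts that were low in myoblasts and above 30 FPKM on day 3. A transcript near 0 on day 0 needs high later levels to reach a mean of 20, so this pattern follows in part from the choice. 2310043L19Rik (NR_037994, chromosome 1, 179571673 to 179573074, minus strand, mm9) was not detected on day 0 in either course and then had 10.1, 54.8 and 42.8 FPKM in siCtrl cells and 33.4, 28.1 and 32.1 in siKlf5 cells. Set against a floor of 3 reads in each day 0 library, it was at least 19.5-fold higher on day 3 in siCtrl cells and at least 13.3-fold higher in siKlf5 cells (adjusted p = 1.69e-04, limma). The function of this RNA is not named in the annotation.

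D830015G02Rik (NR_033497, chromosome 14, 55587624 to 55593186, plus strand), which RefSeq names Mhrt, is the antisense partner of the cardiac myosin heavy chain genes. It had 0.618, 14.2, 57.5 and 121 in siCtrl cells and 0.679, 1.82, 10.6 and 33.2 in siKlf5 cells on days 0 to 3. Both courses rose from the first day to the last, and the siKlf5 library lay below the siCtrl library from day 1 on. The fitted increase was 6.41 ± 0.77 (SE) on the log2 scale (adjusted p = 7.28e-04, limma). Each day 0 library held 1 read. The ratio of day 3 to day 0 was 196 in siCtrl cells (95% exact interval on undivided reads 34.8 to 7771). In siKlf5 cells it was 48.9 (8.38 to 1971), counting error only. These intervals take each read as independent and are too narrow where reads come from the same fragment. Its span shares 1269 bases with exons of Myh7 on the other strand. Myh7, the slow myosin heavy chain, had 7.86, 20.6, 106 and 311 in siCtrl cells and 2.88, 5.11, 15.7 and 55.5 in siKlf5 cells in the same libraries, and since reads of both strands were counted, reads of the pair cannot be told apart where they overlap.

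A930016O22Rik (NR_073014, chromosome 7, 20002815 to 20006766, minus strand) had already risen by day 1, with 2.98, 109.5, 124 and 176 in siCtrl cells and 4.16, 94.5, 165 and 167 in siKlf5 cells. The courses were within 1.5-fold of each other on each day. Its increase was 5.57 ± 0.24 (SE) (adjusted p = 4.86e-06, limma), the smallest p among the 208. It shares 451 exon bases with Ckm, the muscle creatine kinase, on the other strand. Ckm had 21, 693, 768 and 1094 in siCtrl cells and 19.9, 640.4, 1004 and 1096 in siKlf5 cells. Since reads of both strands were counted, reads of the pair cannot be told apart where they overlap. The increase may therefore not be that of the noncoding RNA, and the share of Ckm reads in it was not tested.

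C130080G10Rik (NR_028422, chromosome 2, 113880132 to 113887238, plus strand) starts 848 bases from the start of Actc1, the cardiac actin gene, and runs the other way. Its FPKM was 0.801, 8.61, 70.9 and 90.5 in siCtrl cells and 5.0, 5.12, 41.9 and 68.7 in siKlf5 cells. It stayed below 10 until day 1 in both courses and then rose, and the increase of 5.20 ± 0.78 (SE) (adjusted p = 0.00206, limma) was no longer called without either day 3 library. The siCtrl library of day 0 held 3 reads of it, and the ratio of day 3 to day 0 there was 113 (95% exact interval on undivided reads 38.3 to 550.2). Actc1 went from 188 and 101 on day 0 to 2273 and 1924 by day 1.

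C230029M16 (NR_110482, chromosome 10, 118357437 to 118364199, minus strand), listed by RefSeq as Gm38403, had 7.13, 16.2, 69.2 and 97.2 in siCtrl cells and 1.43, 11.5, 29.3 and 51.5 in siKlf5 cells. The siKlf5 library was the lower one on all 4 days. It rose by 4.42 ± 0.47 (SE) (adjusted p = 4.11e-04, limma). Gm14635 (NR_045321, chromosome X, 11916905 to 11932122, minus strand) had 14.8, 72, 130.0 and 134 in siCtrl cells and 3.97, 37.3, 111 and 119.8 in siKlf5 cells and rose by 4.02 ± 0.40 (SE) (adjusted p = 2.96e-04, limma). Neither shares exon bases with a coding gene of the annotation. In both, the day 3 values were several times those of day 0 in either course.

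Slfn5os (NR_045932, chromosome 11, 82755843 to 82774183, minus strand) had 7.12, 57.4, 136 and 157 in siCtrl cells and 6.86, 102, 99.1 and 111 in siKlf5 cells and rose by 4.22 ± 0.33 (SE) (adjusted p = 9.08e-05, limma). It is named for Slfn5, which stayed between 0.748 and 7.02 FPKM. Its span also covers exons of Unc45b, a chaperone of muscle myosin on the other strand, which had 9.07, 137, 366 and 453 in siCtrl cells and 7.76, 231, 346 and 346 in siKlf5 cells. 1500017E21Rik (NR_033510, chromosome 19, 36693908 to 36763969, minus strand), the Hectd2os of RefSeq, had 4.02, 15.8, 73.2 and 102 in siCtrl cells and 8.0, 13.3, 36.2 and 53.2 in siKlf5 cells. It rose by 3.67 ± 0.50 (SE) (adjusted p = 0.00134, limma), a call that was lost without the siCtrl library of day 3 (adjusted p = 0.0669). It shares 1718 exon bases with Hectd2 on the other strand. For Slfn5os and 1500017E21Rik too, reads of both strands were counted, and the share of reads from the coding gene was not tested. Among these 8 transcripts, the calls of the other 6 held in each of the 8 fits that left out 1 library.

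**Figure D3:**
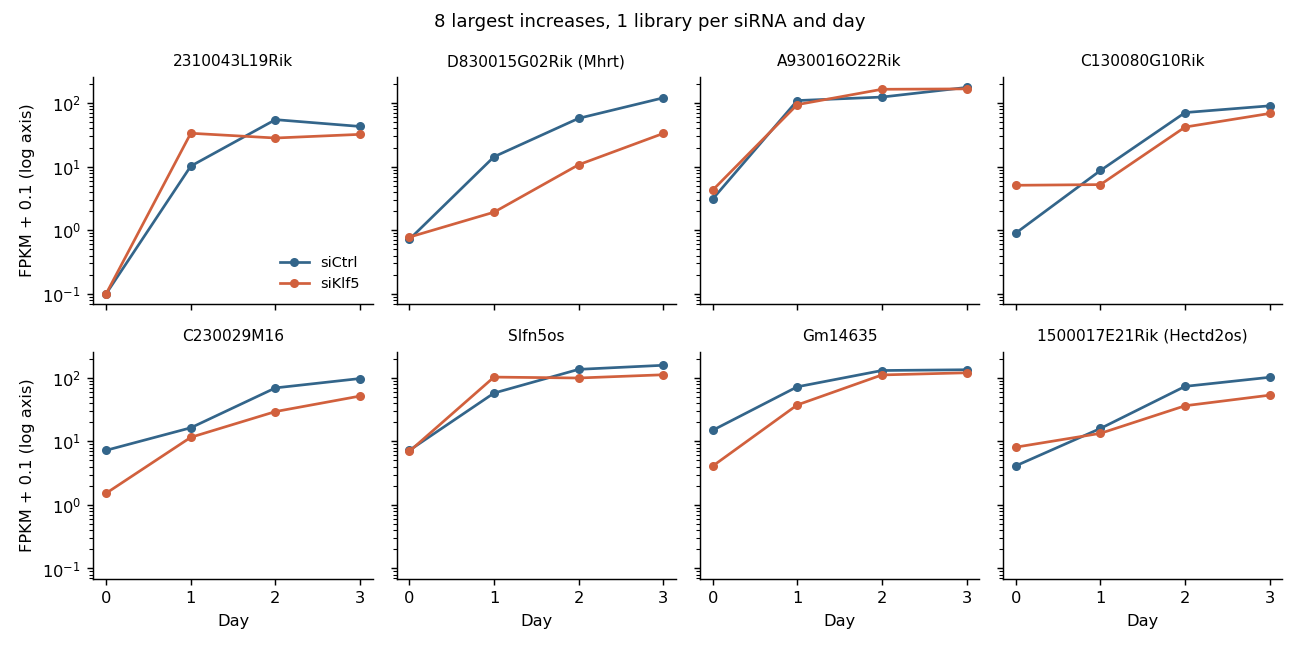
FPKM + 0.1 on a log axis is drawn against the day for the 8 largest increases, with 1 library per point, siCtrl in blue and siKlf5 in orange. All 8 are higher on day 3 than on day 0 in both courses, and D830015G02Rik stands at 14.2 against 1.82 FPKM on day 1.

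These 8 transcripts rose in both courses, and promoters are shown for those that share a muscle motif. The windows are cut from the mm9 genome, run from 100 bases before to 50 after the listed start, and belong to the 4 whose window of 250 bases before to 50 after the start holds the letters CAGCTG, an E-box of the kind that MyoD and myogenin bind. These letters read the same on both strands and are in capitals. Positions are counted from the listed start as 1, with the base before it as -1.
Gm14635 (chrX:11932073-11932222, minus strand): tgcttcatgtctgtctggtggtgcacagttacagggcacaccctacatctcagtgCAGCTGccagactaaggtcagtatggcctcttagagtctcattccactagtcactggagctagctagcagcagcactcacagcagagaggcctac
C130080G10Rik (chr2:113880032-113880181, plus strand): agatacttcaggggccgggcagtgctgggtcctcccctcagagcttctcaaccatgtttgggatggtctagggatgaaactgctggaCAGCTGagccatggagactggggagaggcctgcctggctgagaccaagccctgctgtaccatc
D830015G02Rik (chr14:55587524-55587673, plus strand): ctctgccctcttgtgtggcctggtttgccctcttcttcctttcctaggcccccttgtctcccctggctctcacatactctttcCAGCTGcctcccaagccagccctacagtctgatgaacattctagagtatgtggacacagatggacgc
2310043L19Rik (chr1:179573025-179573174, minus strand): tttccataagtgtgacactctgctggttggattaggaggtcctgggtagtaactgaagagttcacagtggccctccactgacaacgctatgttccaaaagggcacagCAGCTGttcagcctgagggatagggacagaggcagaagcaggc

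The E-box began at -45 in Gm14635, at -13 in C130080G10Rik, at -17 in D830015G02Rik and at 8 in 2310043L19Rik. In all, 16% of 23953 promoter windows of the table hold these letters. They were found for 4 of the 8 largest increases, for 8 of the 38 transcripts that rose (21.1%), for 4 of the 20 that fell (20%) and for 23 of the 150 that were not called (15.3%). GGGCGG, the GC box that Sp and Klf factors bind, was searched on both strands and was in 15 of the 38 windows (39.5%), 13 of the 20 (65%) and 79 of the 150 (52.7%), against 44.9% of all windows. Such matches describe the letters of these windows only.

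The other 30 transcripts that rose did so by less. Gm11149, which shares exon bases with the adhesion gene Ncam1 on the other strand, had 48.9, 173, 230.4 and 236 in siCtrl cells and 58.6, 174, 299 and 267 in siKlf5 cells and rose by 2.23 ± 0.13 (SE) (adjusted p = 2.34e-05, limma). E230016M11Rik, opposite the stress gene Gadd45a, had 77.6, 134, 172 and 257 in siCtrl cells and 73.3, 112, 168 and 250.4 in siKlf5 cells and rose by 1.75 ± 0.13 (SE) (adjusted p = 6.78e-05). Both calls held in each of the 8 fits that left out 1 library, and the courses were within 1.5-fold of each other on each day. These 2 transcripts, the RefSeq coding ones below, 2410006H16Rik, C430049B03Rik and Raver1-fdx1l were chosen for naming after their values were seen.

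For 123 of the 208 transcripts, the exons, or the whole span where GENCODE lists no exons of their own, share bases with a coding gene. These were 23 of the 38 that rose, 9 of the 20 that fell and 91 of the 150 not called. A tested coding gene was at hand for 21 of the 23, and in 18 of the 21 a coding gene that shares bases was itself called higher on day 3. In 1 it was called lower. For the transcripts that fell, 5 of 8 with a tested coding gene shared bases with one that was called lower. Among transcripts that were not called, 62 of 85 shared bases with coding genes none of which was called. Of all transcripts tested, 12.8% were called higher and 17.6% lower, so most were not called. A transcript that shares bases with several coding genes was counted if any of them was called, which raises the counts. Counting used both strands, and how far shared reads enter these values was not tested.

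Of the 15 transcripts that RefSeq lists as coding, 2 rose and 1 fell, beside 12.8% and 17.6% of all transcripts tested. 2310015B20Rik is the transcript of myoregulin (Mrln), a small membrane protein of skeletal muscle that inhibits the calcium pump of the sarcoplasmic reticulum. It had 35.8, 54.9, 132 and 247 in siCtrl cells and 76.3, 73.3, 159 and 137 in siKlf5 cells, and rose by 1.81 ± 0.38 (SE) (adjusted p = 0.00874, limma). The siCtrl library of day 3 was the highest of the 8, and without it the increase was no longer called (also without the siCtrl library of day 0 or either library of day 2). 1810058I24Rik rose by 0.51 ± 0.11 (SE) (adjusted p = 0.0103), and 6430706D22Rik, listed as Hjurp, a chaperone of centromeric histone, fell by 0.55 ± 0.17 on the log2 scale (adjusted p = 0.0429). Neither call was stable: that of 1810058I24Rik was lost without any 1 library of day 0 or 3, and that of 6430706D22Rik without any 1 library of day 0, 2 or 3, with adjusted p up to 0.0926 and 0.328 (limma). 1500011K16Rik, the transcript of the mitochondrial peptide mitoregulin (Mtln), had 172, 140.0, 156 and 139 in siCtrl cells and 189.6, 81.7, 101 and 111 in siKlf5 cells and was not called (adjusted p = 0.0965).

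The snoRNA host genes went the other way. Of the 22 on the list, 16 were matched among the 208 by the exact spelling of their own or their RefSeq name. Of these 16, 8 fell, 8 were not called and none rose. Their median log2 difference between day 3 and day 0 was -0.84, beside -0.09 for all transcripts tested, and 17.6% of all tested were called lower. Among all transcripts with a mean of at least 20, the median was -0.13 and 22.8% were called lower. The list was chosen with earlier results of these data known. 2410004N09Rik, the Epb41l4aos of RefSeq, is on the list under another spelling and was missed in these counts. It had 132, 118, 103 and 56.7 in siCtrl cells and 137, 95.9, 136 and 140.2 in siKlf5 cells and was not called. Snhg1 (NR_002896, chromosome 19, 8797977 to 8800816, plus strand) had 435, 192, 245 and 192 in siCtrl cells and 368, 224, 249 and 177 in siKlf5 cells and fell by 1.12 ± 0.13 (SE) on the log2 scale (adjusted p = 6.68e-04, limma). Gas5 (NR_002840, chromosome 1, 162965297 to 162968668, plus strand), an RNA known to build up in cells that stop growing, had 239.6, 93.3, 104 and 114 in siCtrl cells and 202, 97.9, 101 and 89.8 in siKlf5 cells. It was highest on day 0 in both courses and fell by 1.12 ± 0.15 (adjusted p = 0.00126, limma). In Snhg1 and Gas5 most of the drop had taken place by day 1, and each day 0 value was above each later one.

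The first bases of a host transcript matter because many of these genes carry a run of pyrimidines at the start, the terminal oligopyrimidine tract of translation genes. The 35 bases around the listed start, from 15 before it, are shown for the 8 hosts that fell, from the mm9 genome. Capitals mark the longest run of C and T that touches the 5 bases on either side of the start.
Snhg1 (chr19:8797962-8797996, plus strand): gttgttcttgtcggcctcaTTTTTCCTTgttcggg
Gas5 (chr1:162965282-162965316, plus strand): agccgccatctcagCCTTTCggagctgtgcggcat
Snhg5 (chr9:88417716-88417750, minus strand): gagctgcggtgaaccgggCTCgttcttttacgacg
Snhg6 (chr1:9934180-9934214, minus strand): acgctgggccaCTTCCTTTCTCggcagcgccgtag
Snhg8 (chr3:123211235-123211269, minus strand): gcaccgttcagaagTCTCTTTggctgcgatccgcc
Snhg12 (chr4:131864578-131864612, plus strand): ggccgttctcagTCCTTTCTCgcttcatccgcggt
Gm11974, Snhg15 (chr11:6428744-6428778, minus strand): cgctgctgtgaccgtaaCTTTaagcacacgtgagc
1810032O08Rik, Snhg16 (chr11:116532959-116532993, plus strand): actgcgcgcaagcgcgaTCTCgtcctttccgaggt

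A run of at least 7, a length chosen after the windows were seen, was found at 7 of the 16 hosts (43.8%), at 9 of the 20 transcripts that fell (45%), at 4 of the 38 that rose (10.5%) and at 43 of the 208 (20.7%). Over all 23953 starts the share was 13.4%. Such runs were not confined to the hosts that fell: Dancr and Snhg18, which were not called, each had a run of 10. Among the hosts that fell, Snhg5 had a run of 3 and Snhg15 and Snhg16 had runs of 4. Whether a run goes with a fall was not tested. Listed starts can lie some bases from the start used in these cells, and a shorter run says only that the letters are not in this window. Of 19 coding genes known for such tracts, none was called higher on day 3 and 6 lower, with a median log2 difference of -0.29. In the background that reaches a mean FPKM of 20, 14.4% were called higher and 22.8% lower, and the median was -0.13. Whether the 19 genes differ from this background was not tested.

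The other 6 hosts that fell did so at different paces. Gm11974 (Snhg15) had 172, 129, 107 and 83 in siCtrl cells and 193, 113, 115 and 68.4 in siKlf5 cells and fell by 1.27 ± 0.16 (adjusted p = 8.82e-04, limma). 1810032O08Rik (Snhg16), the host of Snord1a, Snord1b and Snord1c, had 202, 49, 91.8 and 82.3 in siCtrl cells and 154, 77.7, 89.8 and 66.9 in siKlf5 cells and fell by 1.25 ± 0.25 (adjusted p = 0.00778). In Snhg15 the day 3 library was the lowest of each course, whereas in Snhg16 the siCtrl course was lowest on day 1.
Snhg5 had 342, 203, 174 and 190.3 in siCtrl cells and 338, 166, 221 and 131 in siKlf5 cells and fell by 1.11 ± 0.20 (adjusted p = 0.00435). Snhg6, the host of Snord87, had 283, 194, 177 and 110.2 in siCtrl cells and 176, 138, 172 and 98.4 in siKlf5 cells and fell by 1.10 ± 0.17 (adjusted p = 0.00248). On day 0 Snhg6 differed more between the courses than Snhg5 did.
Snhg8 and Snhg12 fell least. Snhg8, the host of Snora24, had 211, 181, 134 and 147 in siCtrl cells and 267, 198, 201 and 173 in siKlf5 cells, a fall of 0.57 ± 0.14 (adjusted p = 0.0166). Snhg12 had 285, 165, 162 and 208 in siCtrl cells and 274, 173, 169 and 220.2 in siKlf5 cells, and its fall was 0.38 ± 0.11 (adjusted p = 0.0321, limma). It was higher on day 3 than on days 1 and 2 in both courses.

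The other 8 hosts were not called. Snhg3 had 281, 59.3, 202 and 149 in siCtrl cells and 222, 206, 178 and 111 in siKlf5 cells and a difference of -0.96 ± 0.48 (SE) (adjusted p = 0.17, limma). Its siCtrl library of day 1 held 33 reads and was far below the others. Snhg4 had 94.4, 8.16, 59.7 and 65.1 in siCtrl cells and 81.4, 60.1, 52 and 42.8 in siKlf5 cells, with 12 reads in that same library (difference -0.73, adjusted p = 0.492). The siCtrl library of day 1 was the shallowest of the 8, and the part of depth in these low values was not tested.
Dancr had 48.2, 18.9, 18.1 and 22.2 in siCtrl cells and 40.6, 34.8, 30.3 and 23.2 in siKlf5 cells (difference -0.96, adjusted p = 0.0832). 9430008C03Rik (Snhg17) had 66, 42.5, 41.2 and 42.7 in siCtrl cells and 48, 36.8, 48.4 and 51.6 in siKlf5 cells (difference -0.26, adjusted p = 0.486). The other 4 had positive differences that were not called. These were 2810008D09Rik (Snhg20) with 0.76, Snhg7 and Snhg18 with 0.49 each and C230091D08Rik (Snhg14) with 0.28, at adjusted p from 0.0837 to 0.659. Their levels were 122, 141, 97.1 and 270.0 in siCtrl cells and 138, 201, 171 and 178 in siKlf5 cells for Snhg20. For Snhg7 they were 33.7, 27.5, 28.2 and 48.3 in siCtrl cells and 28, 28.4, 34.2 and 38.6 in siKlf5 cells. For Snhg18 they were 22.7, 37.4, 43.4 and 19.8 in siCtrl cells and 17.4, 21.8, 38.6 and 39.2 in siKlf5 cells. In Snhg7 and Snhg20 both day 3 libraries were above both day 0 libraries. Snhg14 had 21.1, 36.2, 28.1 and 27 in siCtrl cells and 33.8, 22.9, 18.7 and 38.9 in siKlf5 cells.

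The median over the 16 hosts was below day 0 in both courses. In siCtrl cells its log2 ratio to day 0 was -0.69, -0.68 and -0.74 on days 1, 2 and 3. In siKlf5 cells it was -0.43, -0.49 and -0.82. The number of hosts that were called lower was 8 in the fit described and 3 to 10 when 1 library was left out. It was 3 without the siCtrl library of day 0, and 4 without the siCtrl library of day 3, the siKlf5 library of day 0 or the siKlf5 library of day 3. In the last of these fits 1 host was called higher. With upper-quartile scaling 7 hosts were lower and with median-ratio scaling 6. Of the 8 core proteins of snoRNA particles, which were not selected for level, 7 were called lower on day 3 and none higher, with a median of -1.24. The background that reaches a mean FPKM of 20 had 22.8% called lower, 14.4% called higher and a median of -0.13. 2410006H16Rik, which contains Snord49a, Snord49b and Snord65 and is on no list, had 669, 347, 349 and 309 in siCtrl cells and 538, 370.0, 403 and 335 in siKlf5 cells and fell by 0.90 ± 0.14 (adjusted p = 0.00226, limma). Also on no list, 1110038B12Rik, which contains Snord52, and AA465934, which contains Snord7, were not called. Of the 13 transcripts whose span contains a snoRNA on the same strand, 7 fell, none rose and 6 were not called.

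**Figure D4:**
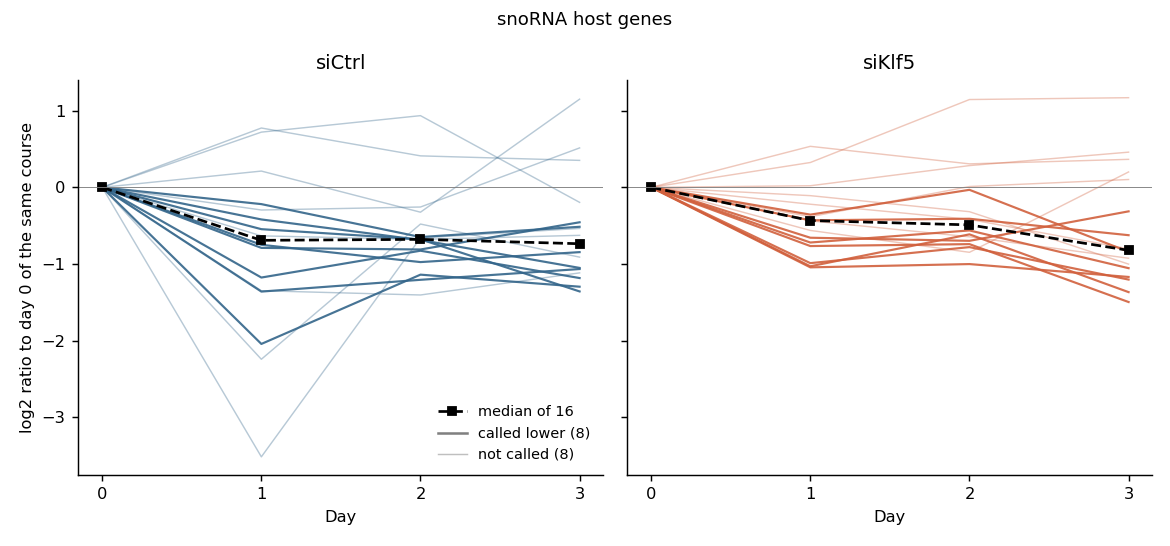
For the 16 snoRNA host genes, the log2 ratio to day 0 of the same course is drawn against the day, with siCtrl on the left and siKlf5 on the right. Dark lines are the 8 hosts called lower and pale lines the 8 not called, and the dashed median ends at -0.74 in siCtrl and -0.82 in siKlf5 cells.

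The largest fall of all belonged to A230070E04Rik (NR_045897, chromosome 14, 68741809 to 68749428, plus strand). It had 263, 254, 51.2 and 21.4 in siCtrl cells and 219.7, 131, 32.3 and 19.6 in siKlf5 cells, stayed high through day 1 in siCtrl cells and then dropped. The difference was -3.55 ± 0.23 (SE) (adjusted p = 3.50e-05, limma), and it was called in each fit that left out 1 library. Its span shares 1095 bases with exons of Nefm, the medium neurofilament gene, on the other strand. Nefm had 499, 516, 84.7 and 53.1 in siCtrl cells and 370.2, 270.4, 60.5 and 48.5 in siKlf5 cells. Since reads of both strands were counted, reads of A230070E04Rik and Nefm cannot be told apart where they overlap. The fall may therefore not be that of the noncoding RNA, and the share of Nefm reads in it was not tested. Rab26os, opposite the small GTPase gene Rab26, had 57.2, 29.3, 70.1 and 23.3 in siCtrl cells and 91.6, 58.9, 57.9 and 34.3 in siKlf5 cells and fell by 1.35 ± 0.31 (adjusted p = 0.0138). The values of day 2 in Rab26os were not below those of day 0 in siCtrl cells.

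Another 4 transcripts were among the 8 largest decreases by size but were not called. Rprl3, a copy of the RNase P RNA gene, had 62.5, 49.6, 2.52 and 4.13 in siCtrl cells and 82.9, 6.35, 26.2 and 23.7 in siKlf5 cells on 2 to 35 reads a library (difference -2.85, adjusted p = 0.129, limma). 5730408K05Rik had 110.2, 4.07, 23.3 and 28 in siCtrl cells and 36.5, 3.92, 26.9 and 18.9 in siKlf5 cells (difference -1.46, adjusted p = 0.0542). 2010204K13Rik had 36.2, 12.8, 8.16 and 9.81 in siCtrl cells and 30.7, 34.3, 16.9 and 15.3 in siKlf5 cells (difference -1.44, adjusted p = 0.0522). In Rprl3 and 5730408K05Rik the day 0 libraries were above the later ones of their own course, whereas in 2010204K13Rik the siKlf5 library of day 1 was above that of day 0. 2810408I11Rik had 58.6, 30.7, 29.7 and 17.2 in siCtrl cells and 58.2, 8.44, 42 and 29.8 in siKlf5 cells (difference -1.36, adjusted p = 0.116).

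Of 9 nuclear and chromatin RNAs, 2 rose, none fell and 7 were not called, with a median difference of 0.25, beside 12.8% called higher and 17.6% lower and a median of -0.09 over all transcripts tested. 2900097C17Rik is Norad, kept on this list although it acts mainly in the cytoplasm, where it binds Pumilio proteins. It had 374, 498, 525 and 556 in siCtrl cells and 414, 548, 574 and 596 in siKlf5 cells and rose by 0.55 ± 0.09 (SE) (adjusted p = 0.00359, limma), also in each fit without 1 library. Firre, an X-linked RNA that organizes chromatin contacts between chromosomes, had 91.9, 78.2, 101 and 154 in siCtrl cells and 81.7, 124, 119.8 and 135 in siKlf5 cells and rose by 0.74 ± 0.22 (SE) (adjusted p = 0.0379). That call was lost without any 1 library of day 0, 2 or 3.
Neat1 differed by 0.38 ± 0.24 (SE) (adjusted p = 0.276) and Malat1 by 0.37 ± 0.13 (SE) (adjusted p = 0.0703), and neither was called. The lowest value of Neat1 was that of siCtrl cells on day 2 and its highest that of siKlf5 cells on day 1. Of 10 paraspeckle proteins, 8 were called lower on day 3 and none higher, beside 22.8% and 14.4% of all transcripts with a mean of at least 20.

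Xist had 339, 382, 302 and 312 in siCtrl cells and 373, 433, 299 and 356 in siKlf5 cells, and its antisense partner Tsix 118, 178, 100.5 and 109 in siCtrl cells and 189, 186, 109 and 132 in siKlf5 cells. The span of the pair overlaps, so their reads cannot be told apart there. Neither was called (adjusted p = 0.544 and 0.197). Tug1, a nuclear RNA of broad expression, had 101, 118, 133 and 103 in siCtrl cells and 120.0, 129, 104 and 116 in siKlf5 cells and a difference of -0.01. Pvt1, the neighbour of Myc, had 34.3, 22.6, 15.3 and 22.3 in siCtrl cells and 23.9, 29.8, 16.1 and 17.1 in siKlf5 cells (difference -0.55, adjusted p = 0.302). Hotair, made in the HoxC cluster, had 31.4, 20.7, 22.4 and 19.6 in siCtrl cells and 11.1, 29, 19 and 25.1 in siKlf5 cells (difference 0.25, adjusted p = 0.756).

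The RNA of RNase MRP, Rmrp, and that of RNase P, Rpph1, are made by RNA polymerase III and carry no poly(A) tail. Rmrp had 989, 965, 266 and 447 in siCtrl cells and 918, 914, 745 and 807 in siKlf5 cells, and Rpph1 had 714, 756, 191 and 304 in siCtrl cells and 723, 796, 509.6 and 691 in siKlf5 cells. Both were lowest in the siCtrl library of day 2. They were not called for the day (adjusted p = 0.191 and 0.18, limma). Rn45s, the ribosomal RNA precursor, which is not among the 208, was lowest in the same library, at 7680.4 FPKM against up to 22636 elsewhere. How far the removal of RNA without a tail differed between libraries was not tested.

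Hosts of microRNAs were the last class. The spans of 8 transcripts contain 10 microRNA hairpins, and their 19 mature arms have 19 different seeds (bases 2 to 8). Of these 8, 2 rose (Mir22hg and Dnm3os) and 1 fell, Raver1-fdx1l, beside 12.8% and 17.6% of all transcripts tested. On the list of microRNA hosts were 4 of the 208, of which the same 2 rose and none fell. The poly(A) libraries measure the host and not the mature microRNA. The main arms of the better known hosts are given 5′ to 3′ from RefSeq, with the seed in capitals and the hairpin placed by its sequence on mm9.
miR-22-3p in Mir22hg (chr11:75277218-75277312): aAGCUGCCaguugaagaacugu
miR-199a-5p in Dnm3os (chr1:164147945-164148054): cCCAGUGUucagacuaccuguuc
miR-214-3p in Dnm3os (chr1:164153499-164153608): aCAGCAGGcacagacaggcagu
miR-322-5p in C430049B03Rik (chrX:50407432-50407526): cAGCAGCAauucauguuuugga
miR-503-5p in C430049B03Rik (chrX:50407161-50407231): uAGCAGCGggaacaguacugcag
miR-92a-3p in Mir17hg (chr14:115443649-115443728): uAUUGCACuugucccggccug
miR-125b-5p in 2610203C20Rik (chr9:41390009-41390085): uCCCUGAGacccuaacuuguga

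Mir22hg had 132, 144, 229 and 264 in siCtrl cells and 124, 216, 232 and 223 in siKlf5 cells and rose by 0.92 ± 0.19 (SE) (adjusted p = 0.0087, limma). It kept its call without either library of day 1 and lost it without any other single library. Dnm3os, an antisense RNA within Dnm3 that carries miR-199a and miR-214, had 19.9, 30.9, 33.6 and 49.4 in siCtrl cells and 15, 31.7, 31.3 and 51.3 in siKlf5 cells. It was highest on day 3 in both courses and rose by 1.54 ± 0.28 (SE) (adjusted p = 0.00496, limma), a call lost without the siCtrl library of day 3 or either siKlf5 library of days 0 and 3.
Raver1-fdx1l, whose span holds miR-7082 and shares exon bases with the coding genes Raver1 and Fdx1l on its own strand, had 325, 175, 198 and 175 in siCtrl cells and 325, 235, 222 and 199 in siKlf5 cells. It was highest on day 0 in both courses and fell by 0.80 ± 0.13 (adjusted p = 0.00278, limma), a call lost without the siCtrl library of day 0 or either library of day 3.
Mir17hg, the host of the growth-promoting miR-17 to miR-92 cluster, had 43, 18.3, 14.5 and 21.5 in siCtrl cells and 28.7, 24.7, 13.9 and 16 in siKlf5 cells (difference -0.92, adjusted p = 0.106). Of that cluster, the span measured here holds only the hairpin of miR-92a. 2610203C20Rik, listed as Mir100hg, had 99.2, 72.4, 68.6 and 60 in siCtrl cells and 80.3, 103, 50.5 and 66.3 in siKlf5 cells (difference -0.50, adjusted p = 0.17). C430049B03Rik, which carries miR-322 and miR-503, had 16, 43.1, 23.9 and 29.5 in siCtrl cells and 25.6, 46.9, 38 and 34.9 in siKlf5 cells (difference 0.66, adjusted p = 0.126). It was highest on day 1 in both courses, and none of these 3 was called.

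Changes between neighbouring days were most frequent at the first step. Between day 0 and day 1, 25 of the 208 transcripts were more than 1.5-fold higher in both courses and 22 more than 1.5-fold lower, beside 8.93% and 10.7% of all tested transcripts. Between day 1 and day 2 the counts were 17 and 7 (8.2% and 3.09% of all), and between day 2 and day 3 they were 4 and 4 (2.75% and 3.16%). These are counts of ratios with no test. Of the 38 transcripts called higher on day 3, 19 had passed 1.5-fold in both courses by day 1, 8 did so between days 1 and 2 and 1 between days 2 and 3. The corresponding counts for the 20 called lower were 10, 2 and 3. In siCtrl cells 33 of the 38 were highest on day 3, and in siKlf5 cells 28 were.

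The second question was whether Klf5 knockdown changed these transcripts. With the 4 days as the replication, none of the 208 was called between siKlf5 and siCtrl (limma, smallest adjusted p = 0.324). Of all tested transcripts, 0.00699% were called higher and 0.0559% lower. At an unadjusted p under 0.05, 24 of the 208 differed (11.5%), beside 9.6% of all tested. No difference in slope over the days was called for any transcript, and 8 of the 208 had an unadjusted p under 0.05 for it.

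Single days were compared with no test. On day 0, 27 transcripts were more than 1.5-fold lower in the siKlf5 library and 22 more than 1.5-fold higher, beside 11.1% and 9.22% of all tested. On day 1 the counts were 27 and 39 (11% and 16.4% of all), on day 2 they were 19 and 18 (13% and 7.69%), and on day 3 they were 25 and 21 (12.5% and 10.7%). Many of these ratios rest on few reads. Reads were divided by 6 for the intervals of siKlf5 over siCtrl, since up to 3 copies of a position were kept and each fragment was read from both ends. The intervals given above for day 3 over day 0 used undivided reads and are narrower for that reason. The 95% exact interval, for counting error only, left out 0 for 8, 11, 12 and 14 of them on days 0 to 3. No transcript passed 1.5-fold in 1 direction on all 4 days. The siKlf5 library was the lower one on each of the 4 days for 18 of the 208 transcripts and the higher one for 15, beside 9.03% and 9.05% of all tested.

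**Figure D5:**
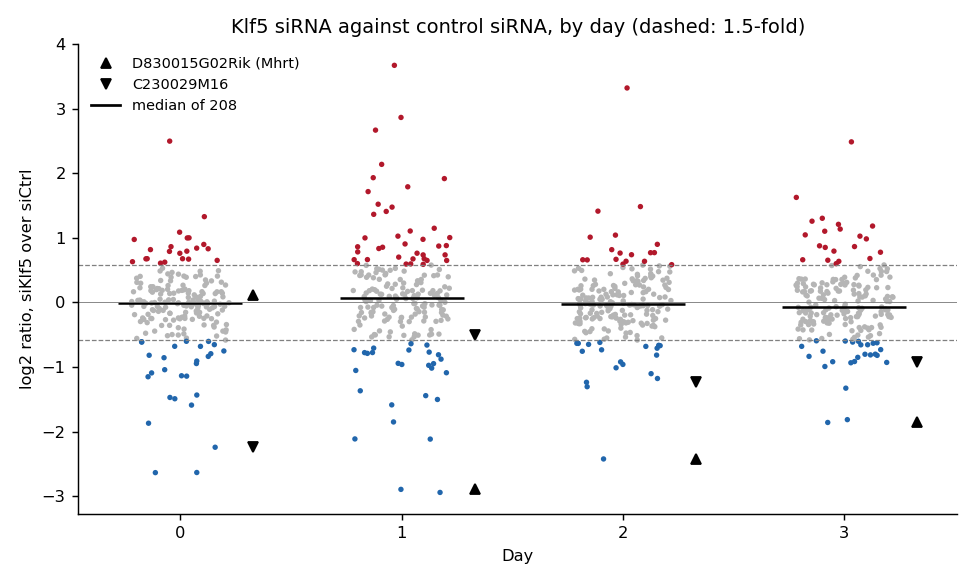
Each point is the log2 ratio of siKlf5 over siCtrl of 1 of the 208 transcripts on the day given (horizontal axis, points spread sideways for sight), with 1 library per siRNA and day. Blue and red mark ratios past 1.5-fold (dashed lines), black bars are medians between -0.08 and 0.07, and triangles show D830015G02Rik and C230029M16, which lie at -1.86 and -0.92 on day 3.

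The 6 largest fitted differences show how uneven the days were. D830015G02Rik led with -1.77 ± 0.54 (SE) on the log2 scale (adjusted p = 0.372, limma). The log2 ratios of siKlf5 over siCtrl for days 0 to 3 were 0.12, -2.90, -2.43 (interval -4.69 to -0.62) and -1.86 (interval -3.21 to -0.75). Myh7 on the other strand had ratios of -1.42, -1.99, -2.76 and -2.48. C230029M16 followed with -1.22 ± 0.33 (adjusted p = 0.324), with ratios of -2.24, -0.50, -1.24 (interval -2.00 to -0.57) and -0.92 (interval -1.53 to -0.33). In these 2 transcripts the siKlf5 library was lower on days 1, 2 and 3, though the fit did not call either.

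Crnde, a noncoding RNA known from proliferating tissue, had 12.7, 39.7, 40.2 and 57.5 in siCtrl cells and 16.7, 9.09, 24.1 and 28.9 in siKlf5 cells and a difference of -0.86 ± 0.38 (adjusted p = 0.526). It was lower in the siKlf5 library on days 1 to 3. Toporsos had 22, 50.7, 22.1 and 19.6 in siCtrl cells and 3.46, 11.6, 35 and 31.1 in siKlf5 cells and a difference of -0.86 ± 0.59, which came from days 0 and 1 on 2 and 5 reads in the siKlf5 libraries. 2010320M18Rik had 34.2, 3.15, 31.2 and 41.3 in siCtrl cells and 16.5, 41.3, 33.9 and 57.8 in siKlf5 cells and a difference of 0.81 ± 0.65, and without either library of day 1 it turned to -0.15. For Rprl3 the difference was 0.82 ± 0.90, and without either library of day 2 it was -0.016. The adjusted p of these last 3 lay between 0.677 and 0.807 (limma), and their days went in opposite directions.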

How the data were processed

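RNA-seq of 8 poly(A), paired-end C2C12 libraries was used (siCtrl or siKlf5, days 0 to 3, 1 library each); the ChIP-seq samples were not analysed here. The authors aligned reads to mm9 with STAR and counted exons of RefSeq transcripts with HOMER (analyzeRepeats.pl), on both strands, with at most 3 reads per position and 1 transcript per gene, and deposited FPKM scaled to a matrix total of 10000000, so values exceed usual FPKM. The versions used for the RNA counts are not given in the sources used here. A further 8 columns of log2 values were not used. FPKM times length gave whole reads for all values within 0.1 of a read, which set depth and intervals.

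Transcripts were tested with limma 3.58.1 in R 4.3.3 (lmFit, eBayes with trend) on log2(FPKM + 0.1), with siRNA and day as factors, over 14312 transcripts with a mean FPKM of at least 1. P-values were two-sided and adjusted by the Benjamini-Hochberg method, and a call needs an adjusted p under 0.05. Fold changes are on the log2(FPKM + 0.1) scale, which understates the change of low transcripts that had reads in each library. Where a library held no reads, as for 2310043L19Rik on day 0, the pseudocount sets the size of the change and can overstate it. The slope of siKlf5 against siCtrl was fitted with day as a number. Ratios past 1.5-fold on single days have no test. Alternatives were other pseudocounts, filters, scalings, a 2-fold limit and each library left out. Overlaps used the mm9 GENCODE annotation. Sequences came from the mm9 genome and, for microRNAs, from RefSeq (GRCm38.p6). RefSeq symbols come from that assembly.

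The named transcripts are those on class lists, the 8 largest increases and 8 largest decreases by day, the 6 largest siRNA differences, those beside the level limit and the 3 highest levels. Transcripts and lists were chosen with earlier results of these data known. Nonsense-mediated decay genes, also on a list, had 1 of 10 called higher and 3 lower on day 3, beside 12.8% and 17.6% of all transcripts tested. Nothing in the labels says that libraries came from separate cultures.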

Additional observations from a re-analysis of the deposited data

Results flagged for a closer look

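In 3 of the 208 transcripts the courses moved past 1.5-fold in opposite directions from day 0 to day 3. With 1 library at each point, the difference between these changes was not tested at single days. The same count was not made over all transcripts tested, so whether 3 of 208 is more than usual cannot be said. Gm20319 had 64.6, 54.6, 48.2 and 12.6 FPKM on days 0 to 3 in siCtrl cells and 10.3, 42.8, 40.7 and 39.1 in siKlf5 cells, a log2 change of -2.35 in the former and 1.91 in the latter. Its slopes over the days differed by 1.29 per day (unadjusted p = 0.009 in limma, not called after adjustment). 4930562F07Rik, with 22.1, 43.4, 33.8 and 45.4 in siCtrl cells and 21.6, 29.9, 21.8 and 12.8 in siKlf5 cells, changed by 1.03 and -0.75 (slope difference -0.55, unadjusted p = 0.072 in limma). Hotair changed by -0.68 in siCtrl and by 1.17 in siKlf5 cells (slope difference 0.48, unadjusted p = 0.129 in limma).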

How the results depend on the processing

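None of the 208 transcripts was called between siKlf5 and siCtrl or for its slope in any setting. The counts called by day, 38 higher and 20 lower, were 18 and 9 with no filter on low values. The lower count was 13 with upper-quartile scaling, 12 with median-ratio scaling, 9 with no intensity trend and 12 with day as a number. Leaving out 1 library gave 15 to 35 higher and 5 to 25 lower. Of the 58 called, 15 kept their call in all 19 alternatives. With a 2-fold limit, siKlf5 was lower for 13, 12, 6 and 3 transcripts and higher for 4, 16, 5 and 10 on days 0 to 3. Between neighbouring days it gave 11 higher and 3 lower from day 0 to 1, 7 and 1 from day 1 to 2, and 2 and 1 from day 2 to 3. With 1.5-fold, the pseudocount of 5 gave 11 higher from day 1 to 2. Upper-quartile scaling gave 14 lower from day 0 to 1, 11 higher from day 1 to 2 and 7 higher from day 2 to 3, and median-ratio scaling 8 higher from day 2 to 3. The siRNA difference of 2010320M18Rik ran from -0.15 to 1.43 and that of Rprl3 from -0.016 to 2.07 when 1 library was left out. Single transcripts kept direction and side of the threshold in 956 comparisons, lost a call in 67 and gained one in 24. In 13 a day difference that was called in neither fit changed sign. In 4 the sign changed for an siRNA difference or a called day difference. The cause was not tested. The fit pairs the libraries by day and by siRNA; with no siRNA term 39 rose and 18 fell by day, and with no day term none was called between siRNAs. Transcripts with under 30 reads in a library are limited by depth.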
